A study of Homo sapiens with 24 samples.

Results

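The 10 genes EGR1, FOS, JUN, IER2, IER3, MYC, KLF6, DUSP1, DUSP5 and DUSP6 are immediate early genes and phosphatases of the MAP kinase ERK, and they were followed in a human hepatoma line treated with silymarin. They were chosen by name among the 18274 genes of the arrays that had a probe set carrying 1 symbol alone, and all 10 had one. Each gene was read from 1 probe set, and where it had several, as IER3 did with 3, the one with the highest mean was used. Huh7.5.1 cells, a hepatoma subline widely used to grow hepatitis C virus, received silymarin, the flavonolignan extract of milk thistle, or its solvent DMSO, and total RNA of each of 24 samples was hybridised to an Affymetrix Human Gene 1.0 ST array. The groups were silymarin at 4 h (4 arrays) and DMSO at 4 h (4), silymarin at 8 h (3) and DMSO at 8 h (5), and silymarin at 24 h (3) and DMSO at 24 h (5). All sample titles carry the word novirus, the dose of silymarin was not given, and no untreated cells without DMSO were analysed here. Every value below is a log2 expression value, so a difference of 1 is a 2-fold difference.

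When growth factors or stress reach a cell, a cascade of kinases ends in ERK, JNK or p38, which phosphorylate transcription factors already bound to DNA. Immediate early genes are transcribed at once in answer, without new protein synthesis, and their mRNAs are short-lived. Many encode transcription factors, while others encode phosphatases that remove the phosphate from MAP kinases again and so limit the signal. In liver these genes respond to partial hepatectomy and to growth factors such as HGF and EGF.

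The promoters shown belong to the genes on which the results turn: EGR1, FOS and JUN, which separated the groups at 8 h, DUSP1, which followed JUN most closely across arrays, and DUSP6, which did not follow them. Promoters of 7 of the 10 genes were read from RefSeq (GRCh38.p14), with 250 bases before and 50 after the start of transcription. IER3, MYC and DUSP5 are named only. Capitals mark CArG boxes, the site of serum response factor, and the CRE half-site TGACG or its reverse complement, read by CREB and ATF factors.
EGR1, chr5:138465229-138465528, + strand: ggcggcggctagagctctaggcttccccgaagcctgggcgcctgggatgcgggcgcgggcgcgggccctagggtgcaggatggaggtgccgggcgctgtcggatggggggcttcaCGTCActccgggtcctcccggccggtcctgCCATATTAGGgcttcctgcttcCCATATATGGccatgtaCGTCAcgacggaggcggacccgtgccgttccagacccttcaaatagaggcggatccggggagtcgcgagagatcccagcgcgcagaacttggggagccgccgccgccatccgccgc
FOS, chr14:75278578-75278877, + strand: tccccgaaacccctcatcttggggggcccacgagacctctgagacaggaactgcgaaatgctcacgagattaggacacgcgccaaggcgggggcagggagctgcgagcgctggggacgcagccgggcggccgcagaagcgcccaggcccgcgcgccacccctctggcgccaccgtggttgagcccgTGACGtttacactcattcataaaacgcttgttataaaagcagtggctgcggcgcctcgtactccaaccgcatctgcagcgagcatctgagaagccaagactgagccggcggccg
JUN, chr1:58783998-58784297, - strand: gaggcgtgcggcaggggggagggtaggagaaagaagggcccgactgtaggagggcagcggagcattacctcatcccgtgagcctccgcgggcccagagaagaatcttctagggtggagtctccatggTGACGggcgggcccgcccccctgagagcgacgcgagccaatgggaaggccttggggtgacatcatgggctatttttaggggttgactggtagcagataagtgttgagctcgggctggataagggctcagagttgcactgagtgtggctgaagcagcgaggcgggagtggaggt
DUSP1, chr5:172771146-172771445, - strand: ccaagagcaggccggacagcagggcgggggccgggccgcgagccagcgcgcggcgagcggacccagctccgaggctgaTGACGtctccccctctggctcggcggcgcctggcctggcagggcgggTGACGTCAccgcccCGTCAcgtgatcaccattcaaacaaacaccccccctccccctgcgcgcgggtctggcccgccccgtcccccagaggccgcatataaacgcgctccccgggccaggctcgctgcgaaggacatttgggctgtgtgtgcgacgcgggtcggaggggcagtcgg
DUSP6, chr12:89352452-89352751, - strand: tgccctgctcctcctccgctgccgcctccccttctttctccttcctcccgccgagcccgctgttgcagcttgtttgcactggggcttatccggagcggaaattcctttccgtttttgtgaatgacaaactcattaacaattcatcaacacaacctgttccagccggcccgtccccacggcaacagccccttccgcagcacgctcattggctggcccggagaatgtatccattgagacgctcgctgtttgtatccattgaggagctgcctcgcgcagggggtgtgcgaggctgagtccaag
The EGR1 window held 2 CArG boxes, starting at -105 and -83 from the start of transcription, and CRE half-sites at -135 and -66. FOS had 1 half-site at -64 and JUN 1 at -123. DUSP1 had 4 half-sites, of which the pair starting at -125 and -122 overlap as the full CRE TGACGTCA. A CArG box was present in 1.29% of the 35116 promoters searched on both strands, a half-site in 24.6% and a full CRE in 1.85%. None of the motifs searched was found in the DUSP6 window, which says only that their letters are not in it. The other motifs searched were TGANTCA, bound by AP-1 (7.71% of promoters), GCGNGGGCG, bound by EGR factors (9.43%), CCGGAAG, bound by ETS factors (10.3%), and TATAAA (11.5%). A match is a description of letters and not a binding site.

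The cells carried the marks of a hepatoma line. Albumin (ALB) averaged 13.34 and alpha-fetoprotein (AFP) 13.13 over the 24 arrays. Endothelial markers reached 6.89 at most (PECAM1) and fibroblast markers 7.77 (COL1A1). Of the 5 leukocyte markers, lysozyme (LYZ) averaged 12.29 and the next, CD14, 7.13. Array medians lay between 7.04 and 7.18. Whether replicates were separate cultures was not stated, so p-values measure only the spread between these samples, which may be technical. Arrays with the same label did not form uniform groups. DDIT4, a stress-induced inhibitor of mTORC1, was between 9.67 and 10.34 in 10 arrays and at most 8.35 in the other 14. The arrays above 9 were replicate 1 of silymarin at 4 h, DMSO replicates 1 and 4 at 4 h, silymarin replicates 1 and 3 at 8 h, DMSO replicates 1, 4 and 5 at 8 h, silymarin replicate 1 at 24 h and DMSO replicate 3 at 24 h. The comparisons of the 10 genes between treatments are therefore also given without these 10 arrays, a setting added after the data were seen. It leaves 3 silymarin and 2 DMSO arrays at 4 h, 1 and 2 at 8 h, and 2 and 4 at 24 h. A difference in a bulk sample cannot tell fewer expressing cells from less RNA per cell.

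At 8 h, 3 of the 10 genes separated the groups: EGR1, FOS and JUN were higher in all 3 silymarin arrays than in all 5 DMSO arrays. Such a separation upward was seen for 0.947% of all genes and a separation downward for 1.99%, and 0 of the 10 genes separated downward. EGR1, a zinc finger factor that is among the most rapidly induced genes of the ERK pathway, was 9.53, 9.15 and 8.997 in silymarin at 8 h, against 8.45, 8.86, 8.76, 8.30 and 8.51 in DMSO. Its difference of 0.65 (SE 0.24, 95% confidence interval 0.16 to 1.14) was the widest of the 10, but over all genes limma's adjusted p = 0.991. Replicate 1 was the highest silymarin array, and the lowest silymarin array lay only slightly above the highest DMSO array.

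FOS and JUN, which pair as the transcription factor AP-1, differed less. FOS was 7.68, 7.42 and 7.38 in silymarin at 8 h, against 6.92, 7.37, 7.28, 7.29 and 7.12 in DMSO, a difference of 0.30 (SE 0.12). JUN was 10.57, 10.15 and 10.19 in silymarin at 8 h, against 9.95, 10.01, 10.08, 10.02 and 10.13 in DMSO, a difference of 0.27 (SE 0.15). For both genes the groups were separated by a narrow gap, and silymarin replicate 1 stood above the other arrays. Without it JUN differed by 0.14, FOS by 0.21 and EGR1 by 0.50. Neither FOS nor JUN passed (limma's adjusted p = 0.991 for each).

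Of the 3 separated genes, EGR1 and FOS had an unadjusted p under 0.05, against 3.93% of all genes, and limma called 0% of genes at an adjusted p under 0.05. DDIT4 was above 9 in 2 of the 3 silymarin and 3 of the 5 DMSO arrays at 8 h. Without all arrays above 9, EGR1 differed by 0.34 (SE 0.27), FOS by 0.10 and JUN by 0.11. There 1 silymarin array was left against 2 DMSO arrays. EGR1, FOS, JUN, IER2 and MYC lay above both, where 26.7% of all genes did, and IER3 lay below both, where 35.1% did. CXCL8, a chemokine, was 10.18, 10.15 and 9.29 in silymarin at 8 h, against 8.16, 10.09, 10.72, 8.43 and 9.32 in DMSO. The parts of DDIT4 and CXCL8 in the 8 h differences were not tested.

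The other 7 genes overlapped at 8 h. KLF6, a zinc finger factor of liver injury, was 9.41, 8.88 and 8.79 in silymarin, against 8.68, 8.84, 8.97, 8.71 and 8.76 in DMSO. Its difference of 0.24 (SE 0.15) became 0.05 without silymarin replicate 1. DUSP1, a phosphatase of JNK, p38 and ERK, was 11.10, 10.67 and 10.81 in silymarin, against 10.51, 10.63, 10.68, 10.57 and 10.85 in DMSO, a difference of 0.21 (SE 0.15). It was 0.09 without silymarin replicate 1, the highest array of the time point in both genes. For IER2, IER3, MYC, DUSP5 and DUSP6 the differences were between 0.04 and 0.19. All 10 differences were above 0, with a median of 0.20, beside 42.0% above 0 and a median of -0.02 over all genes tested. Without the arrays with DDIT4 above 9, 7 of 10 were above 0 with a median of 0.02, and IER3 (-0.06), KLF6 (-0.02) and DUSP5 (-0.03) were below. With single arrays left out the count was 9 or 10, with DUSP6 below 0 where it was 9, and the median was 0.11 without silymarin replicate 1. The genes vary together across arrays, so these are not 10 separate observations. The DMSO group at 8 h also had the lowest mean of the 6 groups for 9 of the 10 genes, all but MYC.

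**Figure D1:**
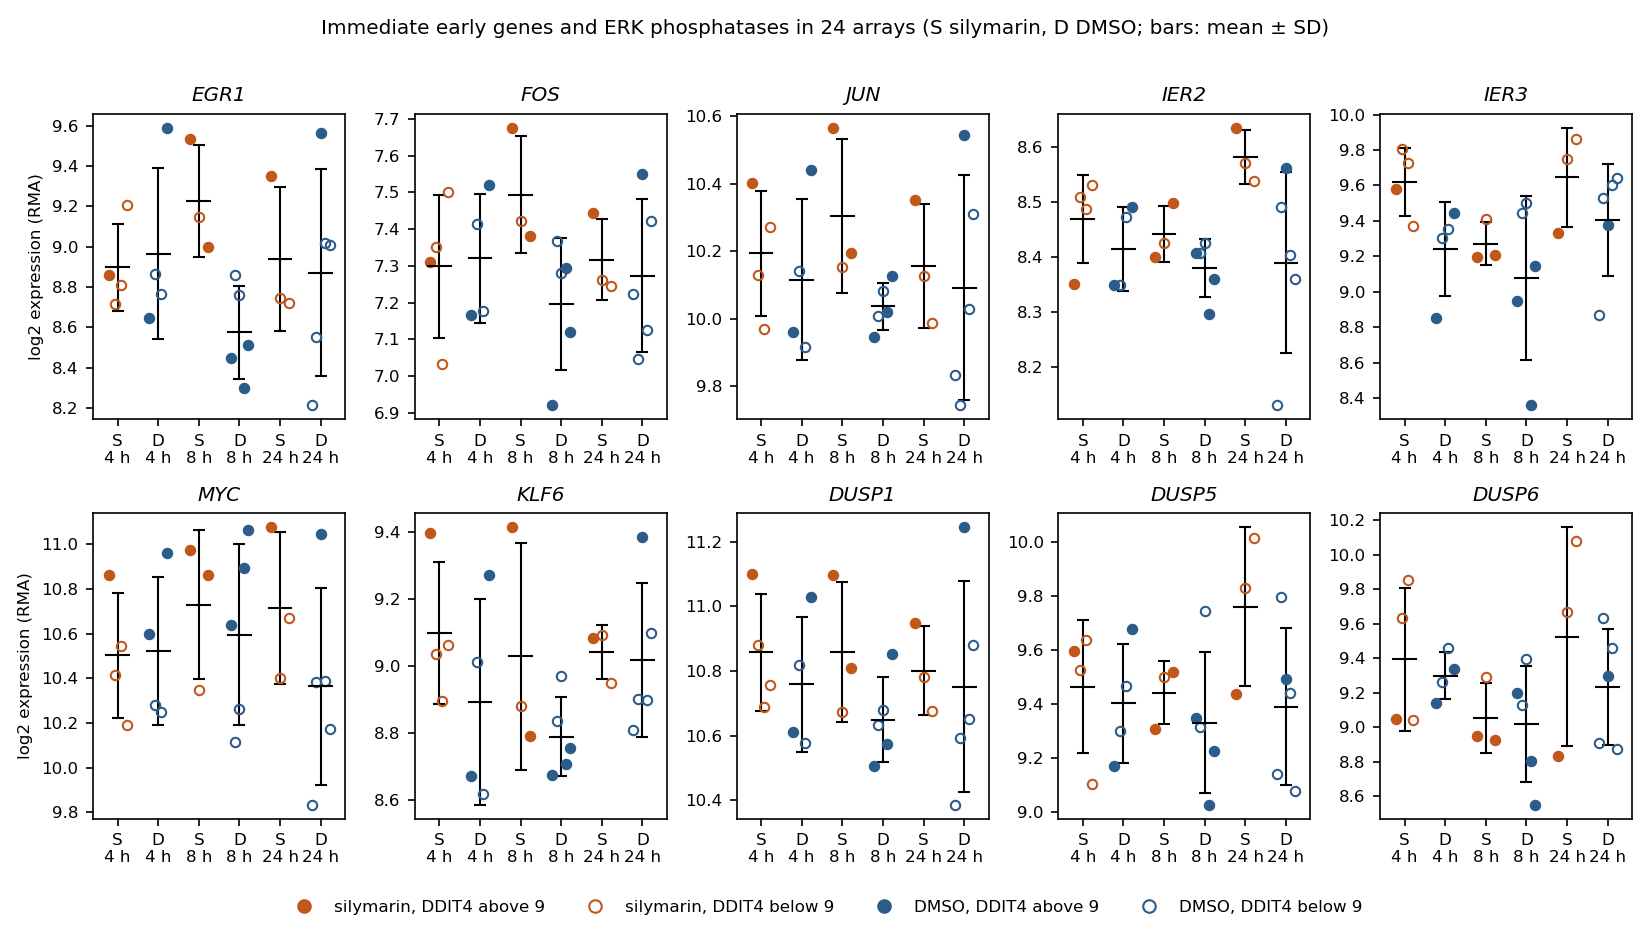
Log2 expression of the 10 genes in each array (points), by treatment and time, with the mean and SD of each group (horizontal line and bar). Filled points mark arrays with DDIT4 above 9. For EGR1 at 8 h the 3 silymarin points, 8.997 to 9.53, lie above the 5 DMSO points, 8.30 to 8.86, while most other pairs of groups overlap.

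At 24 h the genes with the wider differences were others: DUSP5, MYC, DUSP6 and IER3, with EGR1, FOS and JUN close to 0. DUSP5, a nuclear phosphatase specific for ERK, was 9.44, 9.83 and 10.02 in silymarin, against 9.14, 9.80, 9.49, 9.44 and 9.08 in DMSO, a difference of 0.37 (SE 0.17, interval 0.03 to 0.72). DUSP6, the cytoplasmic phosphatase specific for ERK, was 8.83, 9.67 and 10.08 in silymarin, against 8.91, 9.63, 9.30, 9.46 and 8.87 in DMSO, a difference of 0.29 (SE 0.24). In each gene silymarin replicates 2 and 3 were the highest arrays of the time point, whereas replicate 1, with DDIT4 at 10.16, was inside the DMSO range for DUSP5 and below it for DUSP6. Without replicate 3 the difference was 0.24 for DUSP5 and 0.02 for DUSP6, and without replicate 1 it was 0.53 for DUSP5 and 0.64 for DUSP6.

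MYC, the growth-promoting transcription factor, was 11.08, 10.40 and 10.67 in silymarin at 24 h, against 9.83, 10.38, 11.04, 10.39 and 10.17 in DMSO, a difference of 0.35 (SE 0.24). In each treatment the highest array was the 1 with DDIT4 above 9, silymarin replicate 1 and DMSO replicate 3. Without the first of these the difference was 0.17, and without the second it was 0.52. IER3, which modulates ERK signalling and cell survival, was 9.33, 9.75 and 9.86 in silymarin, against 8.87, 9.53, 9.38, 9.60 and 9.64 in DMSO, a difference of 0.24 (SE 0.21), and of 0.11 without DMSO replicate 1. IER2, a nuclear protein, was 8.63, 8.57 and 8.54 in silymarin, against 8.13, 8.49, 8.56, 8.40 and 8.36 in DMSO. It averaged 8.58 ± 0.05 (SD, n = 3) with silymarin and 8.39 ± 0.16 (SD, n = 5) with DMSO, a difference of 0.19 (SE 0.07, interval 0.04 to 0.34). The lowest silymarin array was just below the highest DMSO array.

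None of the 10 genes separated the groups at 24 h, against 1.18% of genes that did so upward and 0.772% downward. IER2 and DUSP5 had an unadjusted p under 0.05, against 3.03% of all genes. limma called 0% of genes at an adjusted p under 0.05, and each of the 10 had adjusted p = 0.99971. All 10 differences were above 0 with a median of 0.13, beside 56.0% above 0 and a median of 0.01 over all genes. That count was 6 without silymarin replicate 1, where EGR1 (-0.14), FOS (-0.02), JUN (-0.04) and DUSP1 were below 0. It was also 6 without DMSO replicate 1, where KLF6 (-0.03), DUSP1 (-0.04), EGR1 and JUN were below, and without DMSO replicate 2. With any other single array left out it was 9 or 10. Without DMSO replicate 3 all 10 were above 0, with a median of 0.23 and EGR1 at 0.24. Without the arrays with DDIT4 above 9 the difference was 0.65 (SE 0.23) for DUSP6 and 0.56 (SE 0.19) for DUSP5, with 0.39 for IER3, 0.34 for MYC and 0.21 for IER2. The adjusted p of each was then 0.895 in limma. All 5 then separated the 2 silymarin from the 4 DMSO arrays, which 7.05% of all genes did upward. The 5 endothelial markers also had the higher mean in silymarin at 24 h, by 0.04 to 0.30. All 5 averaged 6.89 or less over 24 arrays, below the median level of genes, 7.90. Their summed level was 8.31 to 8.66 in silymarin and 8.14 to 8.60 in DMSO on the log2 scale, and their part in the 24 h differences was not tested.

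At 4 h no gene separated the groups, against 0.629% of genes upward and 1.55% downward. IER3 had the widest difference, 0.38 (SE 0.20, interval -0.03 to 0.79), with 9.58, 9.81, 9.73 and 9.37 in silymarin, against 8.85, 9.30, 9.36 and 9.45 in DMSO. In 3 of the 4 silymarin arrays IER3 was above all DMSO arrays, and without DMSO replicate 1, the lowest, the difference was 0.25. KLF6 followed with 9.40, 9.04, 8.90 and 9.06 in silymarin, against 8.67, 9.01, 8.62 and 9.27 in DMSO, a difference of 0.20 (SE 0.15), which was 0.11 without silymarin replicate 1. DDIT4 was above 9 in 1 silymarin and 2 DMSO arrays at 4 h. Without them IER3 differed by 0.31 (SE 0.19) and KLF6 by 0.18, and IER2 and IER3 separated upward, as 6.37% of all genes did.

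For EGR1 the 4 h groups overlapped throughout, with 8.86, 8.72, 8.81 and 9.21 in silymarin, against 8.65, 8.86, 8.76 and 9.59 in DMSO, a difference of -0.07 (SE 0.23). FOS differed by -0.02, MYC by -0.02 and the other genes by 0.05 to 0.10. In all, 7 of the 10 differences were above 0 with a median of 0.07, beside 47.5% above 0 and a median of -0.01 over all genes. The median was 0.02 without silymarin replicate 1 and 0.15, with all 10 above 0, without DMSO replicate 4. Unadjusted, 0 of the 10 had p under 0.05, against 2.48% of genes, and limma called 0% after adjustment (adjusted p = 0.99993 for each of the 10).

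**Figure D2:**
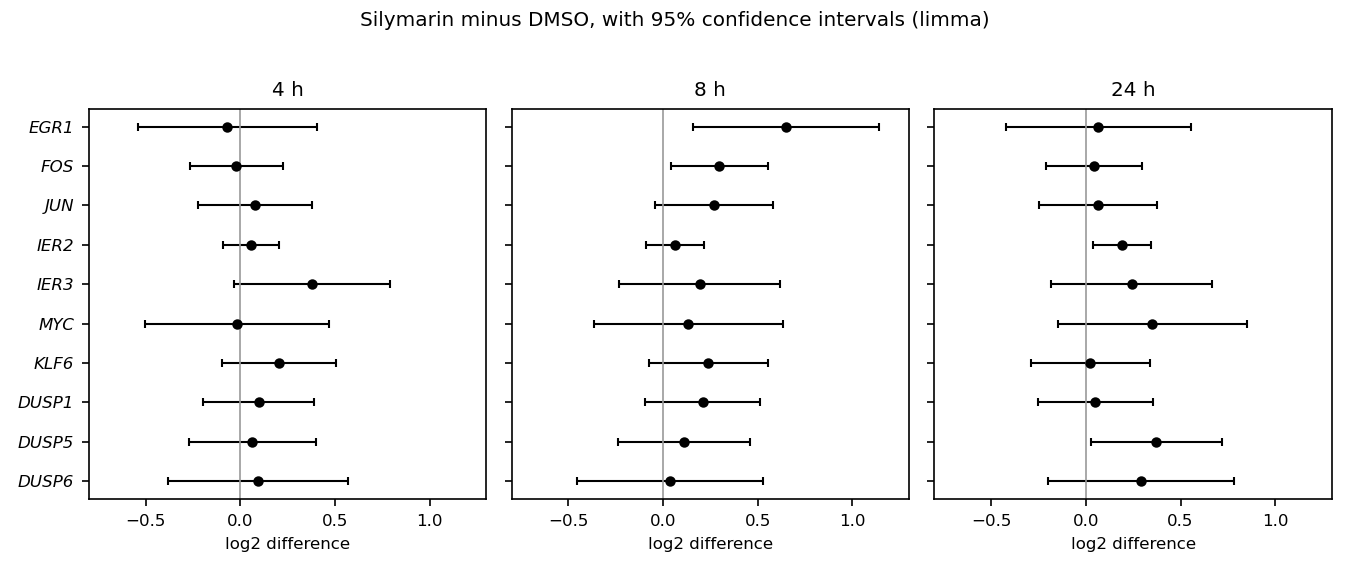
Log2 difference of silymarin minus DMSO for the 10 genes at 4, 8 and 24 h (points) with limma's 95% confidence intervals (bars). At 8 h EGR1 (0.65) and FOS (0.30) and at 24 h IER2 (0.19) and DUSP5 (0.37) have intervals above 0, and no gene passed after adjustment.

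The time course was compared directly. The difference of EGR1 at 8 h minus that at 4 h was 0.72 (SE 0.33, limma's adjusted p = 0.99982), and 0% of genes passed this test of change, against 2.37% with an unadjusted p under 0.05. Without the arrays with DDIT4 above 9 this change of EGR1 was 0.24, with 1 silymarin array left at 8 h. The changes between 8 h and 24 h and between 4 h and 24 h called 0% of genes as well, with 4.08% and 3.02% at an unadjusted p under 0.05. In DMSO alone, EGR1 averaged 8.58 ± 0.23 (SD, n = 5) at 8 h and 8.97 ± 0.42 (SD, n = 4) at 4 h, a difference of -0.39 (SE 0.22, adjusted p = 0.739). Without the arrays with DDIT4 above 9, which left 2 DMSO arrays at each of these times, that difference was -0.003 (SE 0.22). At 24 h EGR1 averaged 8.87 ± 0.51 (SD, n = 5) in DMSO, which differed from 4 h by -0.09 (SE 0.22, adjusted p = 0.99992), and by -0.11 without the arrays above 9. These 2 comparisons share the DMSO arrays at 4 h, and each called 0% of genes in limma, with 6.50% at 8 h and 1.70% at 24 h at an unadjusted p under 0.05. An F-test over the 6 groups gave adjusted p between 0.674 (IER3) and 0.883 (DUSP1) for the 10 genes and called 0% of genes, with 7.20% at an unadjusted p under 0.05. Ordered by mean, 49 of 50 pairs of neighbouring groups overlapped in range, the exception being IER2 between silymarin at 24 h and silymarin at 4 h. The order of neighbouring group means is thus not resolved beyond the spread of arrays, and the share of such overlaps over all genes was not counted. Neighbours in this order are the closest in mean. For EGR1, FOS and JUN the highest and lowest groups, silymarin and DMSO at 8 h, did not overlap.

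Most of the 10 genes varied widely among arrays with the same label. The SD within groups was 0.37 for MYC, 0.36 for EGR1, 0.36 for DUSP6 and 0.31 for IER3, beside a median of 0.12 over all genes. That placed MYC, DUSP6 and EGR1 at percentiles 98.7, 98.6 and 98.6 of all genes. FOS was at percentile 85.2 and IER2 at percentile 22.2. From the lowest to the highest of 24 arrays, DUSP6 spanned 2.88-fold, IER3 2.83-fold, EGR1 2.59-fold and MYC 2.37-fold, while IER2 spanned 1.42-fold. The spread of IER2 was thus the narrowest of the 10.

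Several of the genes were high in the same arrays. The 5 highest arrays of JUN and of DUSP1 were the same 5: silymarin replicate 1 at 4 h, 8 h and 24 h, and DMSO replicate 4 at 4 h and replicate 3 at 24 h. DMSO replicate 4 at 4 h, silymarin replicate 1 at 8 h and DMSO replicate 3 at 24 h were among the 5 highest for EGR1, FOS, JUN, MYC, KLF6 and DUSP1 alike. MYC shared 4 of its 5 highest arrays with each of EGR1, FOS, JUN and DUSP1, and 3 with KLF6. Over 24 arrays, however, MYC had Pearson's r = 0.62 with DUSP1, 0.55 with JUN, 0.38 with EGR1, 0.33 with KLF6 and 0.21 with FOS. In the 10 arrays with DDIT4 above 9 these were 0.69, 0.67, 0.53, 0.52 and 0.62. In the 14 below they were 0.41, 0.02, 0.26, 0.21 and -0.32. All 5 arrays that were highest for JUN had DDIT4 above 9, but other arrays above 9 were low: DMSO replicate 1 at 8 h had JUN at 9.95, EGR1 at 8.45 and DUSP1 at 10.51. CXCL8 was 10.02 to 10.48 in the 5 arrays highest for JUN and 8.16 to 9.32 in the other arrays with DDIT4 above 9. In the arrays with DDIT4 below 9, CXCL8 was 9.21 to 10.83. The part of CXCL8 in these levels was not tested. Across 24 arrays JUN and DUSP1 had Pearson's r = 0.92, KLF6 and DUSP1 0.86, EGR1 and JUN 0.83, and FOS and JUN 0.81. Split by DDIT4, the r of JUN and DUSP1 was 0.96 in the 10 arrays above 9 and 0.79 in the 14 below. These correlations are descriptions over arrays that share their labels and normalization.

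**Figure D3:**
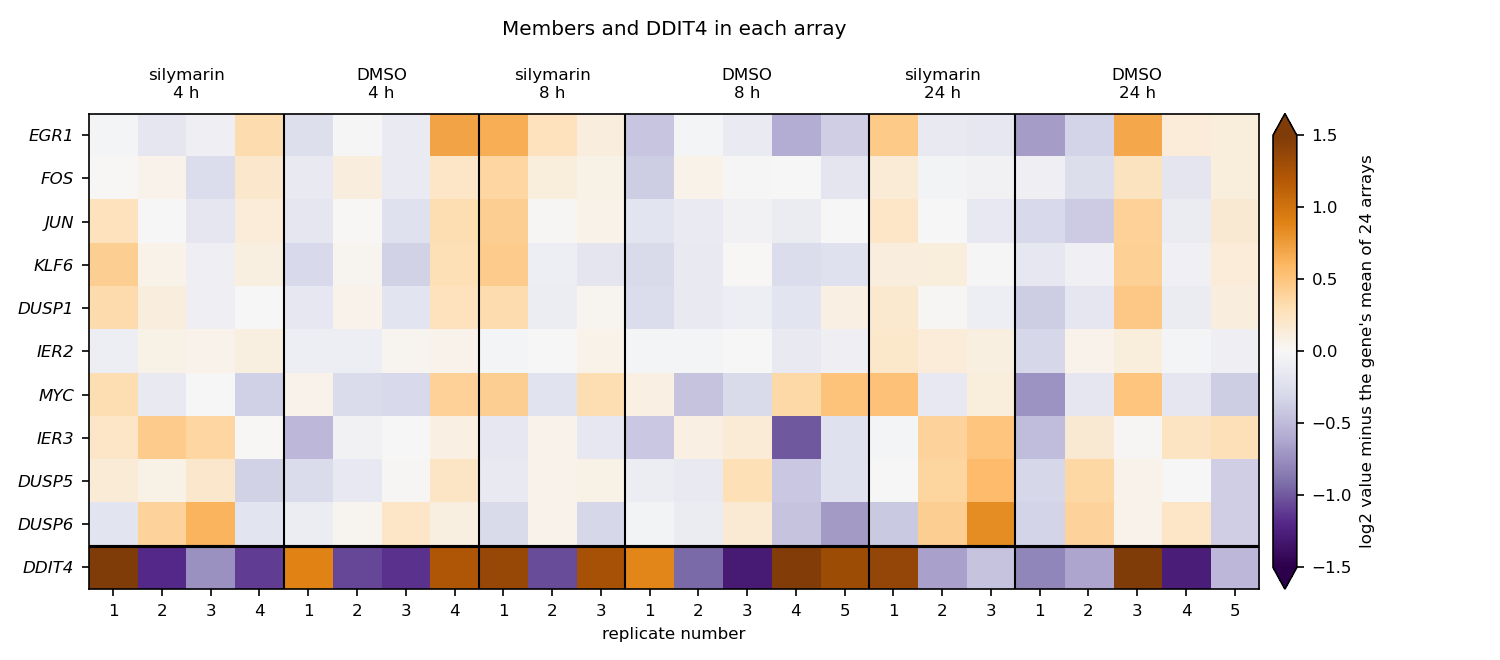
Log2 value of each gene minus its mean over 24 arrays (colour), for the 10 genes and DDIT4 (rows) in each array (columns, by treatment, time and replicate number). EGR1, FOS, JUN, KLF6, DUSP1 and MYC are high together in DMSO replicate 4 at 4 h, silymarin replicate 1 at 8 h and DMSO replicate 3 at 24 h, while DUSP6 is highest in silymarin replicate 3 at 24 h (10.08).

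DUSP5 and DUSP6, the ERK-specific phosphatases, formed another pattern. IER3 shared 4 of its 5 highest arrays with DUSP6 but 2 with DUSP5. Over 24 arrays IER3 had r = 0.65 with DUSP6 and 0.68 with DUSP5. In the 10 arrays with DDIT4 above 9 these were 0.29 and 0.89, beside 0.80 with DUSP1 and 0.73 with JUN and with KLF6. In the 14 below, IER3 had r = 0.70 with DUSP6, 0.61 with DUSP5 and 0.63 with DUSP1. None of the 5 highest arrays of DUSP6 was among the 5 highest of EGR1, FOS, JUN, MYC, KLF6 or DUSP1. DUSP5 and DUSP6 had r = 0.77 over 24 arrays, 0.51 in the 10 arrays with DDIT4 above 9 and 0.90 in the 14 below. Among 9137 genes compared over 24 arrays, DUSP5 ranked 178 and IER3 746 in likeness to DUSP6. With DUSP6, 5.46% of those genes had r of at least 0.7. DUSP6 ranked 37 in likeness to DUSP5, for which 1.29% of genes had such an r. The pattern was thus not particular to these phosphatases. JUN and DUSP6 had r = -0.33 over all 24, 0.25 in the arrays above 9 and -0.34 in those below, so its sign depended on the arrays taken.

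MYC also differed with DDIT4: 9 of its 10 highest arrays had DDIT4 above 9, where it was 10.60 to 11.08, while it was 9.83 to 10.67 in the 14 arrays below. MYC and DUSP6 had r = -0.24 over 24 arrays, but -0.37 in the arrays above 9 and 0.90 in those below. With the 2 arrays farthest from the median left out, r was -0.16 above 9 and 0.88 below. MYC and IER3 had r = -0.18 over 24 arrays, 0.40 above 9 and 0.85 below, the last being 0.60 without the 2 farthest arrays. DUSP6 was 8.55 to 9.34 in arrays above 9 and 8.87 to 10.08 in arrays below. The pooled r of MYC and DUSP6 joined both sets of arrays, and why it was below 0 was not tested.

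**Figure D4:**
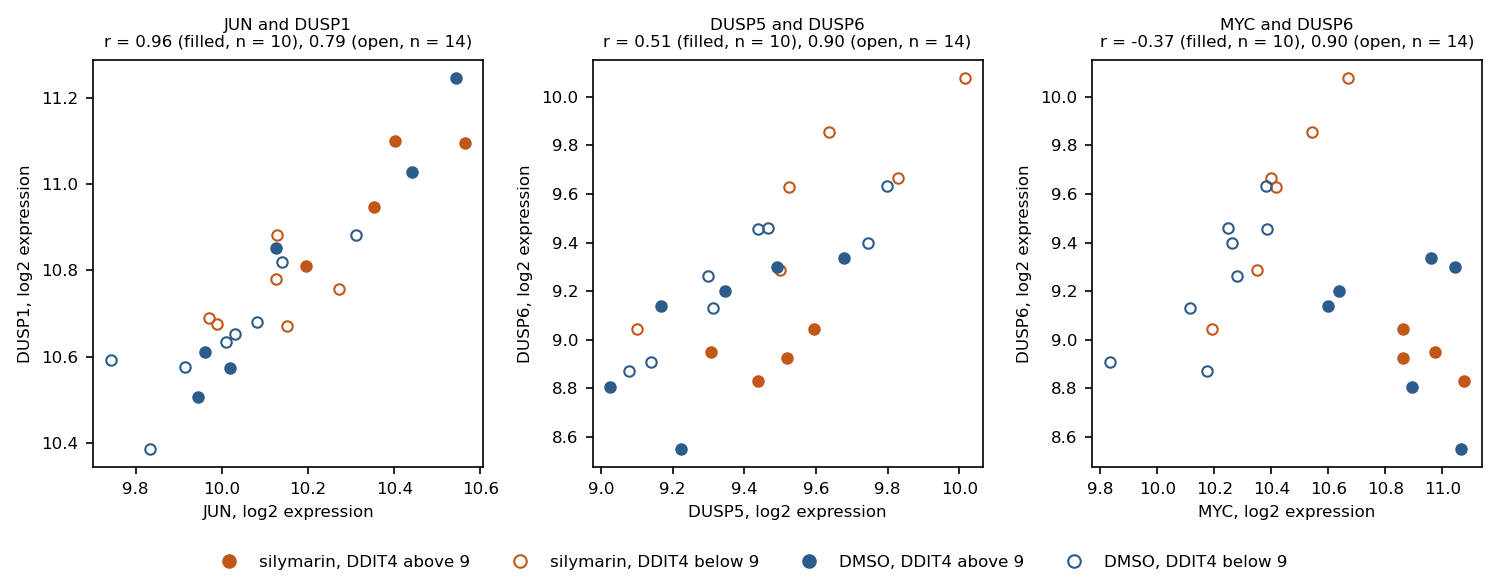
Log2 expression of 3 pairs of genes in 24 arrays, with arrays of DDIT4 above 9 filled and below 9 open. JUN and DUSP1 lie on 1 line in both sets (r = 0.96 and 0.79), whereas for MYC and DUSP6 the open points rise together (r = 0.90) and the filled points lie to the right of them (r = -0.37).

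Among 9136 other genes with at least the median level, the 3 most like each of the 10 over 24 arrays were found by Pearson's r. For DUSP6 they were SPRY2 (0.94), a Sprouty inhibitor of receptor tyrosine kinase signalling, HNMT (0.92), a histamine methyltransferase, and the clock gene PER2 (0.91). Those of IER3 were the amino acid transporter SLC6A14 (0.94), the ephrin receptor EPHA2 (0.92) and the matricellular protein CCN2 (0.91). For MYC they were MAT2A (0.95), which makes S-adenosylmethionine, the BH3 protein PMAIP1 (0.92) and the secreted stanniocalcin STC2 (0.92). Split by DDIT4, the r of MYC and MAT2A was 0.67 in the 10 arrays above 9 and 0.85 in the 14 below.

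Some genes of the first pattern were in each other's lists. FOS lay below the median level and so could not be in a list, and MYC was in none. The list of DUSP1 was JUN (0.92), PPP1R15A (0.87), a stress-induced phosphatase subunit, and KLF6 (0.86). JUN had DUSP1, PPP1R15A (0.84) and KLF6 (0.83). EGR1 had COX20 (0.83), JUN (0.83) and the small GTPase RHOB (0.83), and FOS had JUN (0.81), the apolipoprotein APOC3 (0.76) and EGR1 (0.75). KLF6 had PARP3 (0.86), DUSP1 (0.86) and ETS2 (0.85). DUSP5 had SNCAIP (0.87), the gap junction gene GJA1 (0.87) and PER2 (0.85). The likeness of IER2 was weaker, with ZNF593 (0.74), KTN1-AS1 (0.72) and HES1 (0.71).

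The other genes of the pathway were compared by lists, and limma called 0 members of each list at each time point. The list counts use all 24 arrays, including those with DDIT4 above 9. They are to be read beside the shares of all genes above 0 given earlier for each time point. Genes of a list may vary together, so a count is not of separate observations. Of 24 other immediate early genes measured, 15 lay above 0 at 4 h, 18 at 8 h and 20 at 24 h, with median differences of 0.05, 0.09 and 0.07. At 8 h RHOB averaged 10.18 ± 0.19 (SD, n = 3) with silymarin and 9.86 ± 0.19 (SD, n = 5) with DMSO, a difference of 0.32 (SE 0.13). The orphan nuclear receptor NR4A1 averaged 8.17 ± 0.10 (SD, n = 3) with silymarin and 7.93 ± 0.11 (SD, n = 5) with DMSO at 24 h, a difference of 0.24 (SE 0.07). Its groups did not overlap, as for 1.18% of all genes upward. CCN2 differed by 0.26 at 4 h and by 0.26 at 24 h.

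Among 16 other MAP kinase phosphatases and feedback inhibitors, 11 lay above 0 at 4 h, 4 at 8 h and 12 at 24 h. DUSP10, a phosphatase of JNK and p38, differed by 0.29 (SE 0.13) at 4 h and DUSP4 by 0.29 (SE 0.16) at 24 h. NF1, which switches RAS off, differed by -0.24 (SE 0.11) at 8 h, and its groups separated downward, as for 1.99% of all genes. Of 10 other genes downstream of ERK, 5 lay above 0 at 4 h, 5 at 8 h and 7 at 24 h, with PHLDA1 at 0.24 (SE 0.10) at 4 h and the ETS factor ETV5 at 0.30 (SE 0.16) at 24 h. These output genes of ERK had medians within 0.09 of 0 at each time.

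Upstream, ligands and receptors were mixed. HBEGF, a ligand of the EGF receptor, differed by 0.18 (SE 0.14) at 4 h and 0.23 (SE 0.14) at 8 h, and of the 6 measured ligands 4 lay above 0 at 4 h, 5 at 8 h and 3 at 24 h. Betacellulin (BTC), another ligand, differed by -0.17 (SE 0.08) at 24 h. All 11 growth factor receptors lay below 0 at 8 h with a median of -0.11, while 10 of 11 lay above 0 at 4 h and 10 at 24 h. The HGF receptor MET differed by -0.19 (SE 0.10) and ERBB3 by -0.20 (SE 0.10) at 8 h. Both separated the groups downward, as 1.99% of all genes did. Of 13 members of the ERK cascade itself, 6 lay above 0 at 4 h, 6 at 8 h and 5 at 24 h, with medians between -0.02 and -0.01. In the JNK and p38 cascades 5, 3 and 6 of 12 members did. Among 9 factors and coactivators that drive immediate early genes, 5 lay above 0 at 4 h, 1 at 8 h and 6 at 24 h. The coactivator CREBBP differed by -0.21 (SE 0.09) at 8 h and also separated downward. For MYC partners, 0 of 9 lay above 0 at 4 h, with a median of -0.10, and 4 of 9 at both later times. Each of these genes had an adjusted p above 0.99 in limma.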

How the data were processed

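The authors deposited log2 expression values. The submitters' processing notes name RMA and oligo without versions, and the labels' protocols name the array. RMA combines background correction, quantile normalization and a summary over probes, which makes arrays comparable but not probe sets. A genome build is not given in the sources used here. The values were used as deposited. Of 28869 probe sets, 19302 had 1 symbol in the platform annotation, 1729 had several and 7838 were not listed. The highest-mean probe set was kept for each of 18274 genes.

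One limma 3.58.1 model (R 4.3.3) with 6 group means was fitted to 24 arrays with eBayes (18 residual and 5.04 prior degrees of freedom), and p was adjusted by the Benjamini-Hochberg method over all genes, with a threshold of 0.05. Intervals are 95%. The fit was tested on simulated data with 200 changed genes. Members, lists and tests were chosen with earlier results of these data known. Named genes were the 10 members, the pair of genes in each list that had the lowest p per time point, the 2 brightest markers of each other cell type, and the 3 genes most like each member. Not all list genes so named are printed, and those that are were picked after their values were seen. Of 166 list entries 149 were measured, and the rest were not analysed here. Alternatives were other normalizations, probe set and dim gene rules, limma settings, the replicate number as a block and leaving out each array. Promoters came from RefSeq. Python 3.11.15 and matplotlib 3.10.9 were used.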

Additional observations from a re-analysis of the deposited data

How the results depend on the processing

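limma called 0 genes in each comparison and alternative run, except that repeating the quantile normalization called 1 gene at 24 h, which was none of the 10 described. Counts of the 10 genes called were 0 in all 191 combinations of comparison and setting. Of 477 differences of the 10 genes under the alternative settings, 477 moved by less than 1 SD within groups and 29 changed sign. This is a loose measure, since that SD was 0.36 for DUSP6, wider than its difference of 0.29 at 24 h. The fall of that difference to 0.02 without silymarin replicate 3 thus counted as a move of less than 1 SD. Without the arrays with DDIT4 above 9, 3 of 30 moved by more: FOS at 8 h to 0.10, KLF6 at 8 h to -0.02 and DUSP6 at 24 h to 0.65. The cause was not tested, but this setting also leaves 14 arrays. Of 45 pairs of the 10 genes, 9 had r above 0.7. There were 6 without the 2 arrays farthest from the median, 15 in the arrays with DDIT4 above 9 and 11 in those below, 7 by Spearman's rho and 9 with group means removed.

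Replicate numbers are shared by the groups. Whether they pair the arrays was checked only between silymarin and DMSO within each time point, and links across time points were not tested. Silymarin replicate 1 had DDIT4 above 9 at 4, 8 and 24 h. Residuals of same-numbered arrays correlated at -0.02, 0.11, 0.36 and 0.01 at 4 h, at 0.05, 0.43 and -0.14 at 8 h, and at -0.03, 0.42 and -0.00 at 24 h. With the replicate number as a block, limma called 0 genes. The number of arrays bounds the precision, and FOS lay below the median level of genes, 7.90.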
